A study of Mus musculus with 12 samples.

Results

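Described here are 32 genes in L929 cells, an established mouse fibroblast line. They comprise 15 glycolytic enzymes, 3 transporters of glucose or lactate, 3 kinases that steer glycolytic flux, and 11 other genes known as targets of hypoxia-inducible factor (HIF). The genes were taken by symbol from a list drawn up with earlier results of these data known, and the 32 symbols matched 33 of 56287 entries of the deposited count table. The symbol Aldoa matched 2 of these, and the smaller entry held at most 22 counts in any library and was not tested. All 32 members passed the filter on low counts and were among the 14694 genes tested. RNA from 4 groups of 3 libraries was sequenced. Wild-type cells received no stated agent (mock), or a DNA called HT-DNA by transfection for 6 h. The third group also received AOA at 0.5 mM from 1 h before the DNA (HT-DNA+AOA), and the fourth received AOA in that way plus Asp at 20 mM (HT-DNA+AOA+Asp). AOA and Asp are not spelled out in the labels. Aminooxyacetate, an aminotransferase inhibitor, and aspartate usually carry these short forms. No group with AOA or Asp but without HT-DNA was analysed here, no oxygen level is stated, and whether mock cells saw the transfection reagent is not given. Nothing says that replicates came from separate cultures. The p-values therefore cover the spread among these libraries, which may be technical.

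Glycolysis splits glucose into pyruvate in the cytosol and yields ATP and NADH. Lactate dehydrogenase then returns NADH to NAD+ by reducing pyruvate to lactate, which leaves the cell through monocarboxylate transporters. HIF is a transcription factor of an oxygen-regulated alpha subunit and the stable partner ARNT. In the presence of oxygen, EGLN prolyl hydroxylases mark the alpha subunit for capture by VHL and destruction, and when it escapes, HIF binds short motifs near many genes, among them glycolytic enzymes and genes for vessel growth, collagen modification and mitochondrial turnover.

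Library totals ran from 19944571 to 27309291 estimated counts, and the members held from 1.197% to 1.378% of them. The HT-DNA label was checked with Cxcl10, an interferon-induced chemokine gene, which averaged 0.154 CPM (counts per library total, scaled by TMM) in mock, 35.6 in HT-DNA, 181 in HT-DNA+AOA and 35.7 in HT-DNA+AOA+Asp. Of 10 fibroblast markers 8 were tested, with Thy1 and Lum, both fibroblast markers, at or under 0.5 CPM in every library. The fibroblast sum was from 4940 to 5077 CPM in HT-DNA+AOA and from 5439 to 6047 in HT-DNA, and its part in the results was not tested. Most of it was Vim, from 2833 to 3782 CPM by library, and S100a4, from 1436 to 1979. The next marker, Pdgfrb, reached at most 293.7, so the sum says little about the others. Summed macrophage and leukocyte markers ran from 318.8 to 360.4 CPM in HT-DNA+AOA against 246.2 to 253.1 in HT-DNA. Nearly all of that sum was Cd68, a lysosomal gene, and the defining leukocyte genes Ptprc, Adgre1 and Itgam were at 0 or near it. Endothelial and epithelial marker sums reached at most 7.09 and 2.43 CPM. In bulk RNA, fewer cells carrying a transcript and less of it per cell cannot be told apart.

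On a per-length scale (CPM per kilobase of the deposited gene length), the members spanned a wide range of levels in mock cells. Pkm, the pyruvate kinase gene, stood highest at 1429 ± 54.2 (SD, n = 3, as for every mean ± SD here). Aldoa (aldolase A) followed at 766.1 ± 20.9, Ldha (lactate dehydrogenase A) at 592 ± 30.2 and Gapdh at 535 ± 5.30. The next 4 were Tpi1 at 438 ± 14.2, Pgam1 at 383 ± 16.1, Pgk1 at 358 ± 5.94 and Eno1 at 353 ± 23.5, of which Pgk1 and Eno1 lay within their spread. The rank of Eno1 is uncertain, because counting may split its reads with a near-identical copy, Eno1b. That copy, which is no member, stood at 805 ± 35.2 in mock. Among the other HIF targets, Vegfa, the vascular growth factor, stood highest at 113 ± 5.67, ahead of Ero1a at 84.4 ± 6.54 and Egln3 at 83.9 ± 3.18, which also lay within their spread. Slc16a3 at 1.25 ± 0.0650 and Slc2a3 at 0.142 ± 0.00449 were the lowest 2 members.

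The comparison of HT-DNA with mock asks what DNA transfection alone did to these genes. Most glycolytic members were higher with HT-DNA. Hk2, a hexokinase, rose from 106 ± 3.56 to 176 ± 8.57 CPM, Ldha from 1074 ± 54.9 to 1568 ± 64.0, and the lactate exporter gene Slc16a3 from 2.84 ± 0.148 to 5.62 ± 0.843. Among other HIF targets, the peptide hormone gene Adm rose from 39.5 ± 5.32 to 62.2 ± 4.04 CPM, while Vegfa averaged 224 ± 11.2 and 233 ± 3.64 and was not called. Of the 32 members, 21 rose and 4 fell at an adjusted p under 0.05, where 41.0% of all genes tested were called, 21.2% higher and 19.8% lower. The glycolytic enzymes counted 11 of 15 higher and 2 lower, and the other HIF targets 6 of 11 higher and 1 lower. The enzymes called lower were Pfkm and Aldoc, of which 1 was still called without replicate 1 or 2 of mock, or 1 or 3 of HT-DNA. Both transporters above 1 CPM rose, and of the 3 kinases 2 rose and 1 fell. The median log2 fold change was 0.24 over the members, 0.22 over the enzymes and 0.21 over the other HIF targets, against -0.011 over all genes tested. Scaling by library size alone left 18 members higher and 4 lower, and moved the share of higher calls among all called genes from 51.7% to 39.3%.

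The effect of AOA in transfected cells was read from HT-DNA+AOA against HT-DNA. Of the 15 glycolytic enzymes 8 fell, where 26.5% of all genes tested were called lower, with Hk1 going from 175 ± 1.77 to 123 ± 14.0 CPM and Pfkl, a phosphofructokinase gene, from 284 ± 6.87 to 219 ± 16.4, while Hk2 rose from 176 ± 8.57 to 217 ± 4.46. The other HIF targets split in both directions, with 45.5% called higher and 27.3% lower. The lower share was near the 26.5% of all genes tested. Ndrg1, a stress-responsive gene, rose from 147 ± 1.94 to 313 ± 24.1 CPM and Vegfa from 233 ± 3.64 to 383 ± 9.01, while Egln3, a HIF prolyl hydroxylase, fell from 280.1 ± 2.04 to 174 ± 11.2. Of the 32 members, 8 rose and 13 fell, where 52.0% of all genes tested were called, 25.5% in the higher direction. By set, 1 enzyme rose, 5 of 11 other HIF targets rose and 3 fell, 1 transporter rose and 1 fell, and 1 kinase rose and 1 fell. The median size of the log2 fold change, regardless of sign, was 0.15 over the enzymes and 0.50 over the other HIF targets, against 0.28 over all genes tested. The difference between the 2 sets was not tested. Signed medians were -0.10 over the enzymes, -0.052 over the other HIF targets and 0.0035 over all genes.

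HT-DNA+AOA+Asp was compared with HT-DNA+AOA to ask what Asp did in AOA-treated cells. Hk1 rose to 195 ± 4.54 CPM and Hk2 fell to 161 ± 3.49, Ndrg1 and Vegfa fell to 172 ± 9.32 and 243 ± 10.1, and Egln3 rose to 237 ± 18.9. Among the 32 members, 12 rose and 11 fell, where 54.7% of all genes tested were called, 28.3% higher and 26.4% lower. Of the enzymes 7 rose and 3 fell (1 without HT-DNA+AOA+Asp replicate 3), of the other HIF targets 3 rose and 5 fell, of the transporters 1 rose and 1 fell, and of the kinases 1 rose and 2 fell. For the other HIF targets, the 27.3% higher was near the 28.3% of all genes tested, and 45.5% were lower. The median size of the log2 fold change was 0.15 over the enzymes, 0.43 over the other HIF targets and 0.29 over all genes tested. This comparison and the one before it share the HT-DNA+AOA libraries, and the values of the 2 are therefore set side by side without a measure of likeness.

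HT-DNA+AOA+Asp was also set directly against HT-DNA, to ask what difference remained with both agents. Most members were not called, 25 of 32. The members called lower were Hk2, Eno1 (enolase), Ldha, Pdk1 (a pyruvate dehydrogenase kinase) and Egln3, and those called higher were Pfkfb4 and Ndrg1. That is 5 lower, 3 of them enzymes, and 2 higher, where 18.5% of all genes tested were called, 10.4% higher and 8.15% lower. The members' 21.9% called was near that 18.5%, with 6.25% higher and 15.6% lower. Among all 32 members the log2 fold changes ran from -0.31 to 0.31, with a median size of 0.13 against 0.14 over all genes tested. The number of members called lower ranged from 2 to 7 when single libraries were left out. It was 3 without HT-DNA replicate 1, 2 without HT-DNA replicate 2, 2 without HT-DNA+AOA+Asp replicate 1 and 3 without HT-DNA+AOA+Asp replicate 3.

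**Figure D1:**
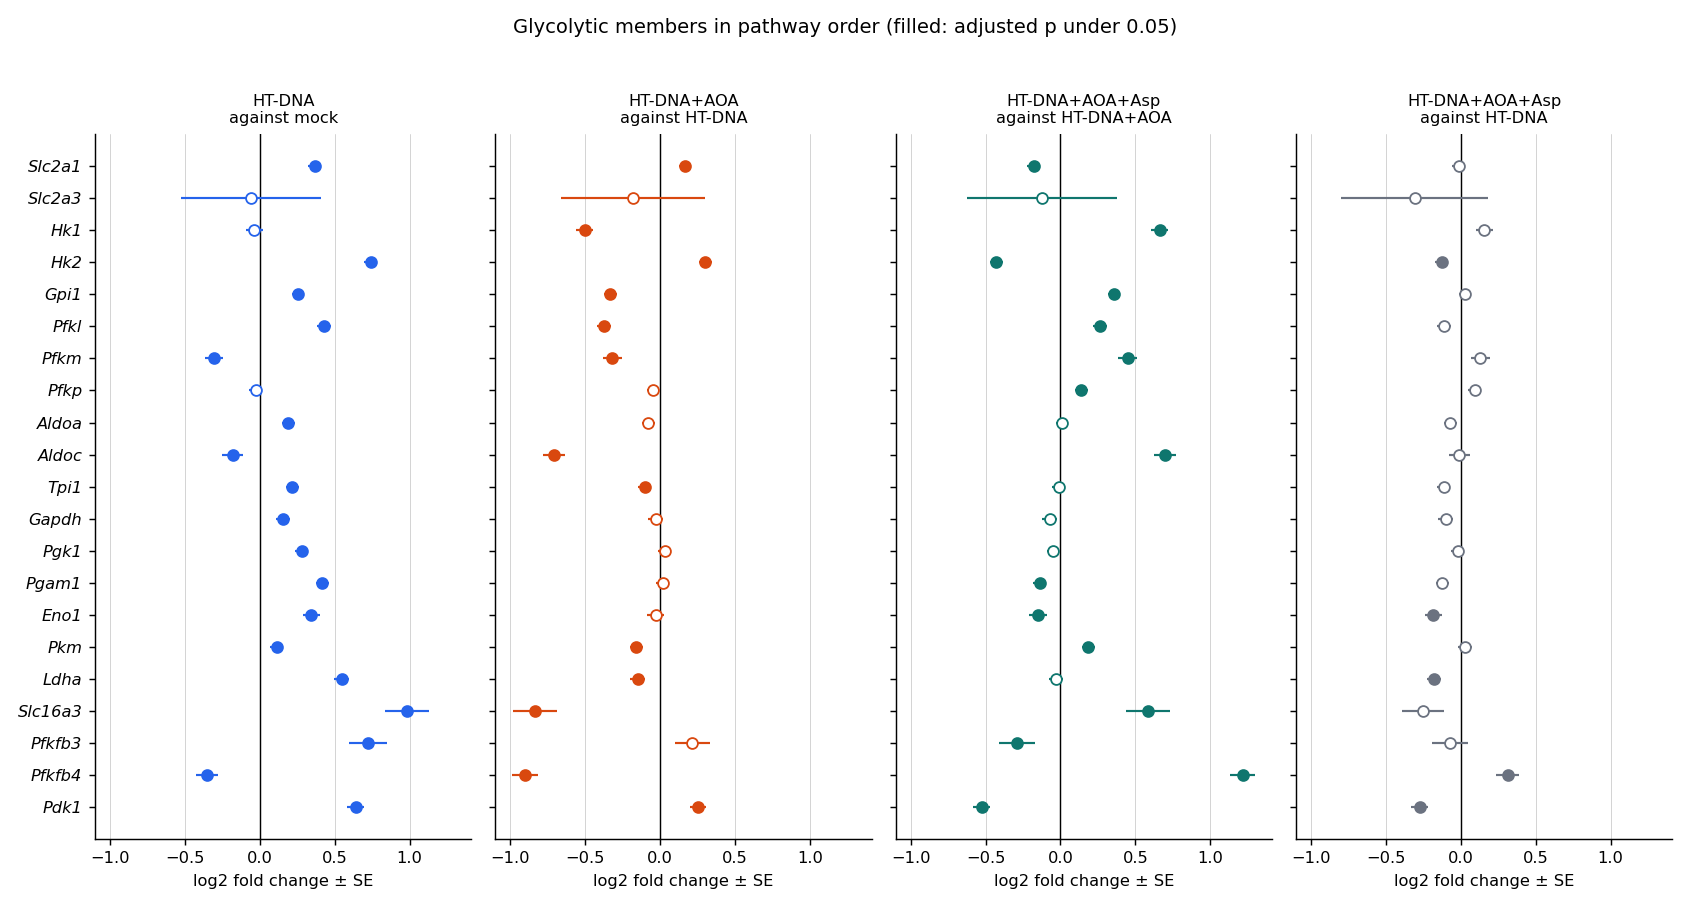
Log2 fold change (x axis, ± SE) of 21 glycolytic members, from glucose uptake at the top to lactate export and the flux-steering kinases at the bottom, in the 4 comparisons; filled points passed an adjusted p under 0.05. The 15 enzymes lay between -0.71 and 0.30 with AOA. No enzyme was called higher in HT-DNA+AOA+Asp against HT-DNA, where 10.4% of all genes tested were called higher.

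Among the transporters, Slc2a1 (ENSMUSG00000028645) encodes the main basal glucose importer GLUT1 and stood at 209, 222 and 223 CPM in the mock libraries, 289, 278 and 276 in HT-DNA, 330.1, 309 and 307 in HT-DNA+AOA, and 272, 288 and 275 in HT-DNA+AOA+Asp. Its HT-DNA libraries lay above all mock libraries, the HT-DNA+AOA libraries above both, and the HT-DNA+AOA+Asp libraries overlapped those of HT-DNA. The gene rose with HT-DNA (log2 fold change 0.37, SE 0.043, adjusted p = 6.11e-07) and again with AOA (log2 fold change 0.17, adjusted p = 0.00272), and fell with Asp (log2 fold change -0.18, adjusted p = 0.00136). Slc16a3 (ENSMUSG00000025161), the lactate exporter MCT4, had low counts at 2.89, 2.96 and 2.67 CPM in the mock libraries, 4.68, 5.88 and 6.30 in HT-DNA, 3.24, 3.15 and 3.02 in HT-DNA+AOA, and 4.30, 4.77 and 5.02 in HT-DNA+AOA+Asp. Its mock libraries were all below the HT-DNA libraries, and the HT-DNA+AOA libraries lay back near the mock level. It rose 1.97-fold with HT-DNA (log2 fold change 0.98, SE 0.15, adjusted p = 1.19e-05), fell with AOA (log2 fold change -0.83, SE 0.14, adjusted p = 4.93e-05) and rose with Asp (log2 fold change 0.58, adjusted p = 0.00209). Slc2a3, the high-affinity importer GLUT3, averaged at most 0.561 CPM in any group and was not called in any of the 4 comparisons.

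Hexokinases trap glucose in the cell by phosphorylation. Hk1 (ENSMUSG00000037012) stood at 173, 182 and 183 CPM in the mock libraries, 174, 177 and 174 in HT-DNA, 137, 124 and 109 in HT-DNA+AOA, and 192, 200.5 and 193 in HT-DNA+AOA+Asp. Its HT-DNA+AOA libraries were below every library of the other groups, mock and HT-DNA overlapped, and HT-DNA+AOA+Asp lay above HT-DNA. With AOA the gene fell (log2 fold change -0.50, SE 0.058, adjusted p = 2.9e-07), and with Asp it rose (log2 fold change 0.66, SE 0.058, adjusted p = 5.07e-09), whereas HT-DNA against mock was not called (log2 fold change -0.038, adjusted p = 0.64). Hk2 (ENSMUSG00000000628) stood at 109.6, 104 and 103 CPM in the mock libraries, 168, 175 and 185 in HT-DNA, 219, 212 and 219.7 in HT-DNA+AOA, and 157, 163 and 163 in HT-DNA+AOA+Asp. Its 4 groups did not overlap at all, with mock lowest and HT-DNA+AOA highest. Hk2 rose 1.67-fold with HT-DNA (log2 fold change 0.74, SE 0.045, adjusted p = 3.71e-11) and further with AOA (log2 fold change 0.30, SE 0.044, adjusted p = 5.39e-06), then fell with Asp (log2 fold change -0.43, SE 0.044, adjusted p = 3.59e-08). Against HT-DNA alone, the HT-DNA+AOA+Asp libraries were lower (log2 fold change -0.13, adjusted p = 0.0475), a call lost without HT-DNA replicate 2 or 3 or any 1 HT-DNA+AOA+Asp replicate (adjusted p = 0.0922 to 0.168), with adjusted p from 0.0232 to 0.168 over all alternatives.

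Gpi1, which converts the product of hexokinase to its fructose form, averaged 540.2 ± 13.5, 645 ± 4.28, 513 ± 14.9 and 657 ± 25.8 CPM in mock, HT-DNA, HT-DNA+AOA and HT-DNA+AOA+Asp. It rose with HT-DNA (log2 fold change 0.26, adjusted p = 3.1e-05), fell with AOA (log2 fold change -0.33, adjusted p = 6.68e-07) and rose with Asp (log2 fold change 0.36, adjusted p = 2.02e-07). Phosphofructokinase, the committed step, is built from subunits encoded by Pfkl (liver type), Pfkm (muscle type) and Pfkp (platelet type). Pfkl (ENSMUSG00000020277) stood at 212, 211 and 209.7 CPM in the mock libraries, 289.7, 286 and 276 in HT-DNA, 237, 205 and 215 in HT-DNA+AOA, and 256, 269.6 and 263 in HT-DNA+AOA+Asp. The HT-DNA libraries were the highest and overlapped no other group, and the HT-DNA+AOA libraries reached down to the mock level. Pfkl rose with HT-DNA (log2 fold change 0.43, SE 0.047, adjusted p = 2.03e-07), fell with AOA (log2 fold change -0.37, SE 0.047, adjusted p = 7.29e-07) and rose with Asp (log2 fold change 0.26, adjusted p = 6.27e-05). Pfkm took another course: it fell with HT-DNA from 37.3 ± 2.04 to 30.2 ± 0.753 CPM (log2 fold change -0.30, adjusted p = 0.000399), fell further to 24.2 ± 1.43 with AOA (log2 fold change -0.32, adjusted p = 0.000263) and rose to 33.0 ± 1.23 with Asp (log2 fold change 0.45, adjusted p = 4.31e-06). Pfkp averaged between 276 and 304 CPM, the HT-DNA+AOA and HT-DNA+AOA+Asp means, and was called only in that comparison (log2 fold change 0.14, adjusted p = 0.00726).

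Aldolases cleave the phosphorylated fructose. Aldoc (ENSMUSG00000017390), the aldolase best known from brain, stood at 23.4, 23.2 and 22.4 CPM in the mock libraries, 20.0, 21.5 and 19.2 in HT-DNA, 12.6, 12.4 and 12.3 in HT-DNA+AOA, and 19.6, 21.3 and 19.6 in HT-DNA+AOA+Asp. All HT-DNA+AOA libraries were below every library of the other groups, and HT-DNA and HT-DNA+AOA+Asp overlapped. Among the 15 enzymes this was the lowest log2 fold change with AOA (log2 fold change -0.71, SE 0.073, adjusted p = 5.07e-08), and the gene rose with Asp (log2 fold change 0.70, SE 0.074, adjusted p = 6.18e-08). Its fall with HT-DNA was small (log2 fold change -0.18, adjusted p = 0.0399) and lost its call without replicate 1 or 2 of mock, or 1 or 3 of HT-DNA (adjusted p = 0.101 to 0.146, and 0.00662 to 0.146 over all alternatives). The abundant muscle-type Aldoa rose with HT-DNA from 1187 ± 32.3 to 1353 ± 56.6 CPM (log2 fold change 0.19, adjusted p = 0.00104) and was not called in the other 3 comparisons.

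From triose phosphate to pyruvate, each of the enzyme genes rose with HT-DNA, by log2 fold changes from 0.11 (Pkm) to 0.42 (Pgam1). Tpi1 (triose phosphate isomerase) rose with HT-DNA from 701 ± 22.7 to 815 ± 21.3 CPM (log2 fold change 0.22, adjusted p = 0.000295), and Pgk1 (phosphoglycerate kinase) from 654 ± 10.8 to 793 ± 32.01 (log2 fold change 0.28, adjusted p = 1.62e-05). Pgk1 was not called in the 3 other comparisons. Gapdh, often taken as a reference gene, averaged 681 ± 6.74, 758 ± 19.3, 742 ± 64.8 and 706 ± 13.8 CPM across the groups in order, and its rise with HT-DNA (log2 fold change 0.15, adjusted p = 0.0155) lost its call without mock replicate 2 (adjusted p = 0.0501) or HT-DNA replicate 2 (adjusted p = 0.0908), with 0.00296 to 0.121 over all alternatives. Tpi1 passed narrowly with AOA (log2 fold change -0.10, adjusted p = 0.0492) and lost that call without HT-DNA replicate 1 or 2 or HT-DNA+AOA replicate 2 or 3 (adjusted p = 0.118 to 0.157, and 0.00176 to 0.157 over all alternatives). Pgam1 (phosphoglycerate mutase) rose with HT-DNA from 680.1 ± 28.7 to 909 ± 20.4 CPM (log2 fold change 0.42, adjusted p = 1.11e-07), and its lower level with Asp (log2 fold change -0.14, adjusted p = 0.01) lost the call without HT-DNA+AOA+Asp replicate 3 (adjusted p = 0.0569, with 0.00077 to 0.0919 over all alternatives). Its processed copy Pgam1-ps2 may share reads with it and held at most 6.06% of their joint counts.

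Eno1 rose with HT-DNA from 715 ± 47.7 to 908 ± 57.1 CPM (log2 fold change 0.34, adjusted p = 1e-04). Counting may split reads between Eno1 and Eno1b, a near-identical retrotransposed copy that held from 64.8% to 69.9% of their joint counts, so Eno1 values are uncertain. Its lower levels with Asp (log2 fold change -0.15, adjusted p = 0.0358) and in HT-DNA+AOA+Asp against HT-DNA (log2 fold change -0.18, adjusted p = 0.0376) were small, and with both genes' counts summed the second was not called (log2 fold change -0.076, adjusted p = 0.31). The Asp call was lost without HT-DNA+AOA replicate 1 or 2 or HT-DNA+AOA+Asp replicate 1 or 3 (adjusted p = 0.108 to 0.154, and 0.00452 to 0.154 over all alternatives). The call against HT-DNA was lost without HT-DNA replicate 1 or 2 or HT-DNA+AOA+Asp replicate 1 or 3 (adjusted p = 0.115 to 0.158, and 0.000553 to 0.31 over all alternatives). Pkm averaged 2916 ± 111, 3152 ± 87.5, 2824 ± 79.3 and 3215 ± 107 CPM in the 4 groups in order. It fell with AOA (log2 fold change -0.16, adjusted p = 0.0046) and rose with Asp (log2 fold change 0.19, adjusted p = 0.00111). Its rise with HT-DNA (log2 fold change 0.11, adjusted p = 0.0468) lost the call without replicate 1 or 2 of mock, or 1 or 2 of HT-DNA (adjusted p = 0.142 to 0.162, and 0.011 to 0.33 over all alternatives).

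Ldha (ENSMUSG00000063229), the step from pyruvate to lactate, stood at 1050.0, 1036 and 1137 CPM in the mock libraries, 1604, 1606 and 1494 in HT-DNA, 1459, 1380.2 and 1398 in HT-DNA+AOA, and 1340.3, 1457 and 1354 in HT-DNA+AOA+Asp. Every mock library was below every library of the other groups, and the HT-DNA libraries were above those with AOA. Ldha rose 1.46-fold with HT-DNA (log2 fold change 0.55, SE 0.048, adjusted p = 8.75e-09). With AOA it fell slightly (log2 fold change -0.15, SE 0.048, adjusted p = 0.0111), a call lost without HT-DNA replicate 2 (adjusted p = 0.0535, with 0.000422 to 0.0535 over all alternatives), and with Asp it was not called (log2 fold change -0.03, adjusted p = 0.626, 95% interval -0.13 to 0.07). In HT-DNA+AOA+Asp it was lower than in HT-DNA (log2 fold change -0.18, adjusted p = 0.011), a call lost without HT-DNA replicate 1 or 2 or HT-DNA+AOA+Asp replicate 1 or 3 (adjusted p = 0.054 to 0.0643, with 0.000519 to 0.0643 over all alternatives).

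**Figure D2:**
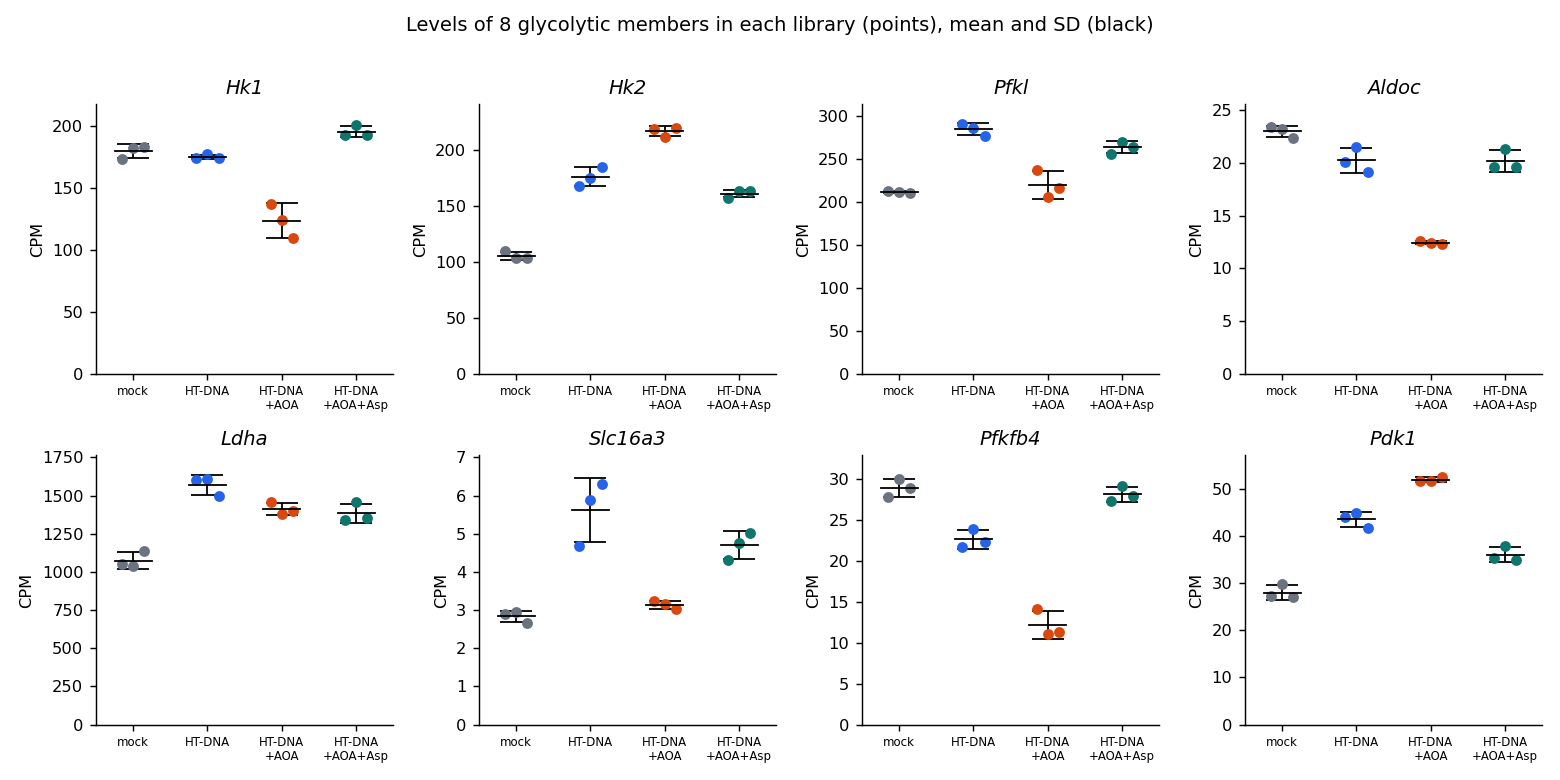
CPM (y axis, from 0) of 8 glycolytic members in each of the 12 libraries by group, with the mean and SD of each group in black. Hk1, Pfkfb4 and Aldoc are lowest in the HT-DNA+AOA libraries, where Hk2 and Pdk1 are highest, and Ldha is lowest in mock.

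The kinases that steer flux act beside the pathway. Pfkfb3 and Pfkfb4 encode bifunctional enzymes that make and remove the fructose bisphosphate which activates phosphofructokinase, and Pdk1 encodes a kinase that holds pyruvate back from the mitochondrial dehydrogenase. Pfkfb4 (ENSMUSG00000025648) stood at 27.8, 30.1 and 28.9 CPM in the mock libraries, 21.7, 24.0 and 22.3 in HT-DNA, 14.1, 11.1 and 11.4 in HT-DNA+AOA, and 27.4, 29.2 and 27.9 in HT-DNA+AOA+Asp. All HT-DNA+AOA libraries were below every other library, and HT-DNA lay below mock and below HT-DNA+AOA+Asp without overlap. The gene fell with HT-DNA (log2 fold change -0.35, SE 0.076, adjusted p = 0.000719), fell to 0.535 times that level with AOA (log2 fold change -0.90, SE 0.084, adjusted p = 8.83e-09) and rose 2.32-fold with Asp (log2 fold change 1.22, SE 0.083, adjusted p = 6.65e-11). It was also called higher in HT-DNA+AOA+Asp than in HT-DNA (log2 fold change 0.31, adjusted p = 0.00672). Pdk1 (ENSMUSG00000006494) stood at 27.2, 29.7 and 27.1 CPM in the mock libraries, 43.9, 44.8 and 41.8 in HT-DNA, 51.5, 51.6 and 52.5 in HT-DNA+AOA, and 35.4, 37.9 and 34.9 in HT-DNA+AOA+Asp. Its 4 groups did not overlap, with mock lowest and HT-DNA+AOA highest. Pdk1 rose with HT-DNA (log2 fold change 0.64, SE 0.058, adjusted p = 1.27e-08) and with AOA (log2 fold change 0.25, adjusted p = 0.000563), fell with Asp (log2 fold change -0.53, SE 0.056, adjusted p = 6.58e-08), and was lower in HT-DNA+AOA+Asp than in HT-DNA (log2 fold change -0.27, adjusted p = 0.00191). Pfkfb3 rose with HT-DNA from 4.78 ± 0.534 to 7.90 ± 0.729 CPM (log2 fold change 0.72, SE 0.13, adjusted p = 8.99e-05) and was not called with AOA (log2 fold change 0.22, adjusted p = 0.135). Its fall with Asp (log2 fold change -0.29, adjusted p = 0.048) lost the call without HT-DNA+AOA replicate 1 or 3 or HT-DNA+AOA+Asp replicate 2 or 3 (adjusted p = 0.0691 to 0.226, and 0.0266 to 0.226 over all alternatives).

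Where 2 or more genes encode the same activity, each can be given as a share of their summed CPM per kilobase. The sums given here took Hk1 and Hk2, Pdk1 to Pdk3, Pfkfb1 to Pfkfb4, and P4ha1 and P4ha2. Relatives outside these sets, among them Hkdc1 and Pdk4, were left out. An exact permutation test of 3 libraries against 3 cannot give a two-sided p below 0.1, so these shares are given as a description. Hk2 held 29.1% ± 1.33 in mock, 41.3% ± 1.25 in HT-DNA, 55.2% ± 2.92 in HT-DNA+AOA and 36.6% ± 0.475 in HT-DNA+AOA+Asp of the hexokinase sum. Pdk1 held 20.3% ± 1.5 in mock, 32.4% ± 1.64 in HT-DNA, 41.5% ± 2.23 in HT-DNA+AOA and 28.5% ± 1.42 in HT-DNA+AOA+Asp of the pyruvate dehydrogenase kinase sum. Its relative Pdk2, which is no member, held 31.9% ± 1.65 in mock, 16.4% ± 0.327 in HT-DNA, 8.17% ± 1.36 in HT-DNA+AOA and 21.0% ± 1.07 in HT-DNA+AOA+Asp. Pdk3, the largest part of that sum, held 47.7% ± 2.77 in mock, 51.2% ± 1.63 in HT-DNA, 50.3% ± 0.964 in HT-DNA+AOA and 50.5% ± 2.39 in HT-DNA+AOA+Asp, and its 3 groups with HT-DNA overlapped. Pfkfb4 held 49.5% ± 1.45 in mock, 41.6% ± 1.02 in HT-DNA, 29.7% ± 2.78 in HT-DNA+AOA and 45.6% ± 1.73 in HT-DNA+AOA+Asp of its family's sum, and Pfkfb3 13.9% ± 1.71 in mock, 24.6% ± 2.58 in HT-DNA, 37.9% ± 1.54 in HT-DNA+AOA and 20.5% ± 2.47 in HT-DNA+AOA+Asp. Pfkfb2, which is no member, held 19.9% ± 1.93 in mock, 19.1% ± 2.96 in HT-DNA, 24.6% ± 2.03 in HT-DNA+AOA and 21.1% ± 2.44 in HT-DNA+AOA+Asp. P4ha1, of the collagen prolyl hydroxylase pair, held 67.0% ± 1.29 in mock, 68.8% ± 1.65 in HT-DNA, 80.2% ± 0.391 in HT-DNA+AOA and 70.4% ± 0.704 in HT-DNA+AOA+Asp, where mock and HT-DNA overlapped. HT-DNA+AOA had the highest share of Hk2, Pdk1 and Pfkfb3 and the lowest share of Pdk2 and Pfkfb4. Shares of a family are parts of the same sum, so a higher share of any gene lowers the rest. The opposite courses of the shares of Pdk1 and Pdk2, and of Pfkfb3 and Pfkfb4, are therefore not separate observations. In CPM, each gene was tested by itself. With AOA, Pdk1 was called higher (log2 fold change 0.25) and Pdk2 lower (-1.10). Pfkfb4 was called lower (-0.90), but Pfkfb3 was not called (0.22), so the rise in its share was not matched by a call in CPM.

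Several members that went opposite ways with AOA carry the core letters of the HIF-binding motif in the 250 bases before their start. The 250 bases before each annotated start were read from RefSeq's promoter table (build GRCm38.p6), in which 30 of the 32 members matched by symbol. Ndrg1 and Slc2a3 had no entry. The letters ACGTG or GCGTG were searched on both strands, so that they also read CACGT or CACGC on the strand shown, and a match can overlap the E-box CACGTG. At least 1 match was in 36 of 44 member windows (81.8%), in 20 of 26 windows of the glycolytic enzymes (76.9%) and in 10 of 11 of the other HIF targets (90.9%), against 55.1% of 12773 windows of tested genes and 38.6% of 32851 windows in the table. CACGTG itself was in 4 member windows (9.09%), a share near the 8.31% of windows of tested genes. Slc2a1, Slc16a3 and Pfkl, also called with AOA, likewise had 1 annotated start with a match and are not shown. As examples, 8 windows of genes with 1 annotated start are shown, 5′ to 3′ on the gene's strand with matches in capitals. They pair members that were higher with AOA (P4ha1, Adm, Ero1a, Hk2) with members that were lower (P4ha2, Egln3, Bnip3, Pfkfb4).
P4ha1: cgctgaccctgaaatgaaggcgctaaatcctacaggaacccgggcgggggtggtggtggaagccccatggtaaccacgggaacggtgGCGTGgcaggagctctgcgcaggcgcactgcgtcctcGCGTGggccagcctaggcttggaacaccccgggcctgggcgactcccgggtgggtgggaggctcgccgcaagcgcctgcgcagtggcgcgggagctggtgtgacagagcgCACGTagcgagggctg
P4ha2: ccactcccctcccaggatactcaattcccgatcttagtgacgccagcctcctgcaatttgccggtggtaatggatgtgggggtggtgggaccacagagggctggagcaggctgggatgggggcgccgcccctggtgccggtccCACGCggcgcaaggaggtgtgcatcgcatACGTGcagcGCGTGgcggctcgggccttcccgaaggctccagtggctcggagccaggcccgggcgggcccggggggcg
Adm: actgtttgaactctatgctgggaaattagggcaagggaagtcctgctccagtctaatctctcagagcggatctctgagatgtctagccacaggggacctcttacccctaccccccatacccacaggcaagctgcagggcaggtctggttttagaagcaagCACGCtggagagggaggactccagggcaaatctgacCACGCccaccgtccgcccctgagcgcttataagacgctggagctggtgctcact
Ero1a: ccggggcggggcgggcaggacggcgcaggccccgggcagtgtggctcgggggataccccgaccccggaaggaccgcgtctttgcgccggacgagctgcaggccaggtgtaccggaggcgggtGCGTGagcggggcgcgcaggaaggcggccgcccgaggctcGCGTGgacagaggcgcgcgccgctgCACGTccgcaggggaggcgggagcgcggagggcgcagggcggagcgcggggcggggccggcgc
Egln3: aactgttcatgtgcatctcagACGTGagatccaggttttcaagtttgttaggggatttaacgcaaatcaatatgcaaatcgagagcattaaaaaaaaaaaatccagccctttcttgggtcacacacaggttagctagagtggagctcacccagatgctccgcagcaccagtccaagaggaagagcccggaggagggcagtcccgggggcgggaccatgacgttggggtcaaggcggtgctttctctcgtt
Bnip3: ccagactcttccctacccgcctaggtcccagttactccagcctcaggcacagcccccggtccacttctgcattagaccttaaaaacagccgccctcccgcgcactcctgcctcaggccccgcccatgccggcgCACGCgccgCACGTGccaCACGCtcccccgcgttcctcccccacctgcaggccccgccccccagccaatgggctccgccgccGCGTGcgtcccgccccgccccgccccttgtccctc
Pfkfb4: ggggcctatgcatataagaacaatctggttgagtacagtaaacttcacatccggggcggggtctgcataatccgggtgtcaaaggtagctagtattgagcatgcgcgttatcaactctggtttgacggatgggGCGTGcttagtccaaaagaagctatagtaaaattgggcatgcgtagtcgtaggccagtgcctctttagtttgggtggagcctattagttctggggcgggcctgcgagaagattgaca
Hk2: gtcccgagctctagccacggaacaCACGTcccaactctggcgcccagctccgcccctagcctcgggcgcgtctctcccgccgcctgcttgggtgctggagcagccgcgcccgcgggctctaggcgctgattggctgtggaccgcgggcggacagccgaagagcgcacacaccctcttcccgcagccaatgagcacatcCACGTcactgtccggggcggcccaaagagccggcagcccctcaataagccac

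The windows lie at chr10:59323046-59323295 (P4ha1, plus strand), chr11:54100674-54100923 (P4ha2, plus), chr7:110627407-110627656 (Adm, plus), chr14:45318573-45318822 (Ero1a, minus), chr12:54203875-54204124 (Egln3, minus), chr7:138909507-138909756 (Bnip3, minus), chr9:108991652-108991901 (Pfkfb4, plus) and chr6:82774455-82774704 (Hk2, minus). They hold 3, 3, 2, 3, 1, 5, 1 and 2 matches in that order. Gpi1 and Tpi1, which also have 1 annotated start and were called lower with AOA, have 0 matches in their windows. A match is a string of letters, and binding was not measured. The build of the count table is not given in the sources used here.

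The other HIF targets that rose with AOA included secreted and secretory-pathway genes. Vegfa (ENSMUSG00000023951) stood at 225, 234 and 212 CPM in the mock libraries, 233, 229.6 and 237 in HT-DNA, 372, 387 and 388 in HT-DNA+AOA, and 253, 233 and 241 in HT-DNA+AOA+Asp. All HT-DNA+AOA libraries were above every other library, and the remaining 3 groups overlapped in part. Vegfa was not called with HT-DNA (log2 fold change 0.061, adjusted p = 0.294), rose 1.64-fold with AOA (log2 fold change 0.71, SE 0.044, adjusted p = 1.77e-11), fell with Asp (log2 fold change -0.66, SE 0.044, adjusted p = 6.06e-11) and was not called between HT-DNA+AOA+Asp and HT-DNA (log2 fold change 0.058, adjusted p = 0.394, 95% interval -0.034 to 0.15). Adm (ENSMUSG00000030790), the gene of the vasodilator adrenomedullin, stood at 44.1, 40.7 and 33.7 CPM in the mock libraries, 57.7, 63.4 and 65.6 in HT-DNA, 86.6, 106 and 99.2 in HT-DNA+AOA, and 53.6, 59.0 and 51.4 in HT-DNA+AOA+Asp. Mock libraries were lowest and HT-DNA+AOA libraries highest, with no overlap between these and the rest. Adm rose with HT-DNA (log2 fold change 0.66, SE 0.10, adjusted p = 0.000161) and with AOA (log2 fold change 0.65, adjusted p = 7.94e-05) and fell with Asp (log2 fold change -0.84, SE 0.097, adjusted p = 8.31e-06).

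Ero1a (ENSMUSG00000021831) encodes the oxidase that drives disulfide formation in the endoplasmic reticulum and stood at 388, 391 and 339.5 CPM in the mock libraries, 352, 379.9 and 434 in HT-DNA, 624, 610.2 and 574 in HT-DNA+AOA, and 351, 385 and 379 in HT-DNA+AOA+Asp. The HT-DNA+AOA libraries were above all others, and the other 3 groups overlapped. It was not called with HT-DNA (log2 fold change 0.059, adjusted p = 0.562), rose with AOA (log2 fold change 0.63, SE 0.072, adjusted p = 2.52e-06) and fell with Asp (log2 fold change -0.70, SE 0.072, adjusted p = 8.65e-07). Ndrg1 (ENSMUSG00000005125), a gene known to respond to hypoxia and other stress, stood at 175, 175 and 175 CPM in the mock libraries, 145, 148 and 148 in HT-DNA, 315, 337 and 288 in HT-DNA+AOA, and 165, 183 and 168 in HT-DNA+AOA+Asp. HT-DNA libraries were the lowest, HT-DNA+AOA libraries the highest, and HT-DNA+AOA+Asp libraries overlapped mock. Ndrg1 fell with HT-DNA (log2 fold change -0.25, SE 0.051, adjusted p = 0.000348), rose 2.13-fold with AOA (log2 fold change 1.09, SE 0.051, adjusted p = 1.54e-13), the highest fold among the 32 members in that comparison, and fell with Asp (log2 fold change -0.87, SE 0.051, adjusted p = 6.21e-12). It was called higher in HT-DNA+AOA+Asp than in HT-DNA (log2 fold change 0.23, adjusted p = 0.00356).

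Collagen prolyl hydroxylase needs an alpha subunit, encoded by P4ha1 or P4ha2, and these went opposite ways with AOA. P4ha1 (ENSMUSG00000019916) stood at 100.1, 96.5 and 93.9 CPM in the mock libraries, 123, 124 and 132 in HT-DNA, 169.7, 169 and 165 in HT-DNA+AOA, and 126, 123 and 125 in HT-DNA+AOA+Asp. Mock was lowest and HT-DNA+AOA highest without overlap, and HT-DNA and HT-DNA+AOA+Asp overlapped. P4ha1 rose with HT-DNA (log2 fold change 0.38, SE 0.043, adjusted p = 3.12e-07) and with AOA (log2 fold change 0.41, SE 0.043, adjusted p = 4.7e-08) and fell with Asp (log2 fold change -0.43, adjusted p = 2.26e-08). P4ha2 (ENSMUSG00000018906) stood at 26.2, 25.3 and 27.2 CPM in the mock libraries, 33.4, 30.5 and 31.1 in HT-DNA, 23.3, 22.3 and 22.9 in HT-DNA+AOA, and 30.4, 28.0 and 28.5 in HT-DNA+AOA+Asp. Its HT-DNA+AOA libraries were below all others, and its HT-DNA libraries above all others. P4ha2 rose with HT-DNA (log2 fold change 0.27, adjusted p = 0.00127), fell with AOA (log2 fold change -0.47, SE 0.063, adjusted p = 1.81e-06) and rose with Asp (log2 fold change 0.34, adjusted p = 1e-04).

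Egln3 (ENSMUSG00000035105), a HIF target that itself hydroxylates the HIF alpha subunit, stood at 214, 225 and 231 CPM in the mock libraries, 279.7, 278 and 282 in HT-DNA, 185, 173 and 163 in HT-DNA+AOA, and 221, 258 and 233 in HT-DNA+AOA+Asp. HT-DNA libraries were above all others and HT-DNA+AOA libraries below all others, while HT-DNA+AOA+Asp overlapped mock. Egln3 rose with HT-DNA (log2 fold change 0.33, SE 0.053, adjusted p = 3.68e-05), fell with AOA (log2 fold change -0.69, SE 0.054, adjusted p = 7.27e-10), rose with Asp (log2 fold change 0.45, SE 0.054, adjusted p = 3.86e-07) and was lower in HT-DNA+AOA+Asp than in HT-DNA (log2 fold change -0.24, adjusted p = 0.0033). Bnip3 (ENSMUSG00000078566), a mitochondrial receptor for mitophagy, stood at 53.9, 56.6 and 48.0 CPM in the mock libraries, 56.5, 60.5 and 63.2 in HT-DNA, 43.7, 43.3 and 40.0 in HT-DNA+AOA, and 49.2, 55.7 and 55.6 in HT-DNA+AOA+Asp. Again the HT-DNA+AOA libraries were below all others, and HT-DNA overlapped mock. It fell with AOA (log2 fold change -0.50, SE 0.067, adjusted p = 1.6e-06) and rose with Asp (log2 fold change 0.34, adjusted p = 0.000211). Its rise with HT-DNA (log2 fold change 0.18, adjusted p = 0.0276) lost the call without mock replicate 3 (adjusted p = 0.164) or HT-DNA replicate 2 (0.0951) or 3 (0.1), with 0.00919 to 0.164 over all alternatives.

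**Figure D3:**
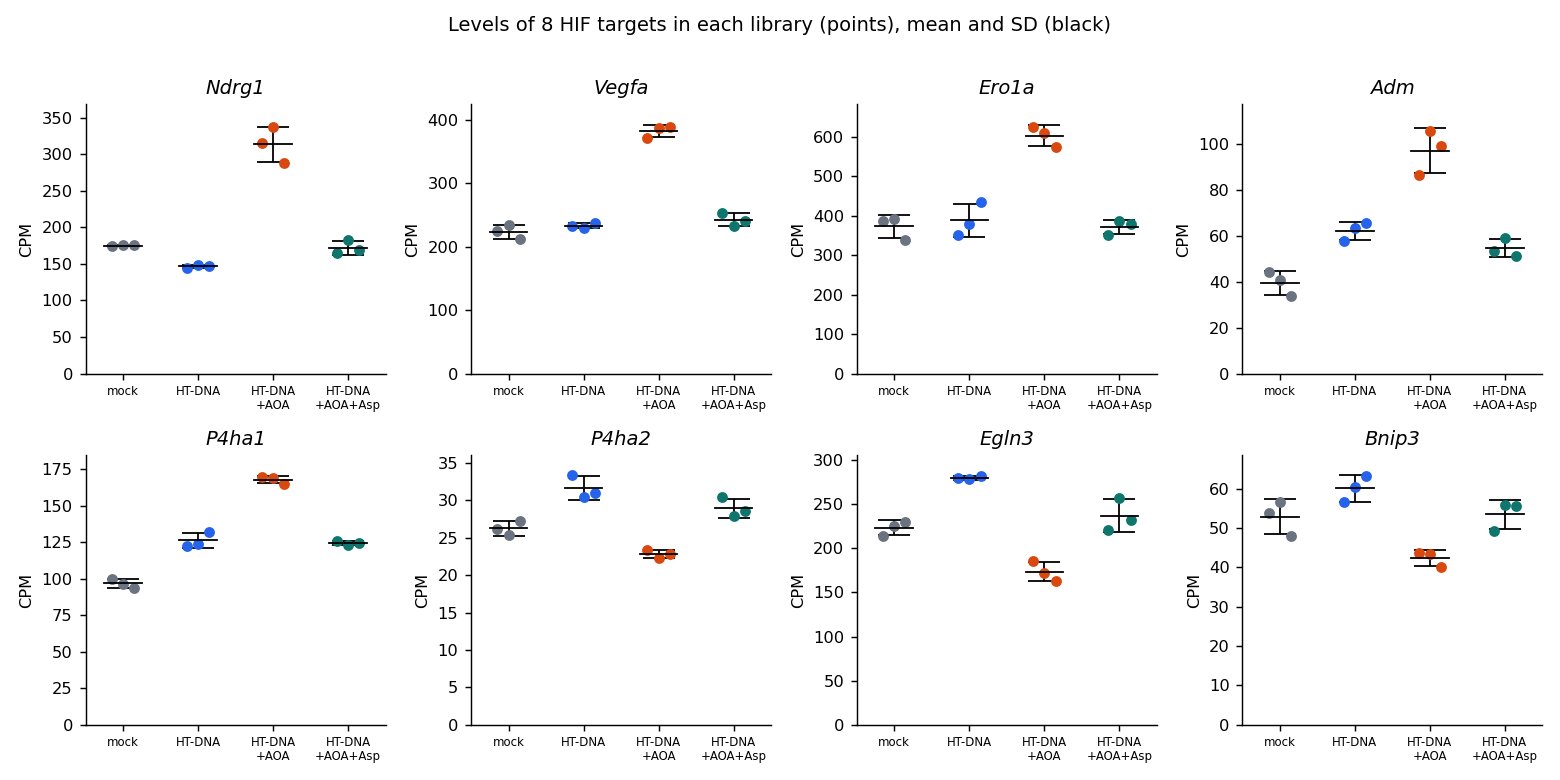
CPM (y axis, from 0) of 8 other HIF targets in each of the 12 libraries by group, with the mean and SD of each group in black. In the top row and for P4ha1 the HT-DNA+AOA libraries are the highest, and for P4ha2, Egln3 and Bnip3 they are the lowest.

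Of the remaining 3 HIF targets, 1 was called, and in 1 comparison. Car9, a membrane carbonic anhydrase, averaged 35.1 ± 5.66, 39.1 ± 5.31, 33.9 ± 3.24 and 39.8 ± 5.41 CPM in the 4 groups in order, and Ankrd37 1.96 ± 0.303, 2.28 ± 0.168, 1.94 ± 0.276 and 2.56 ± 0.252. Neither was called in any of the 4 comparisons. For Car9 the 95% interval of the log2 fold change was -0.18 to 0.48 with HT-DNA and -0.54 to 0.13 with AOA, which are the changes compatible with these libraries. Higd1a, a protein of the mitochondrial inner membrane, rose with HT-DNA from 40.0 ± 1.18 to 47.9 ± 3.53 CPM (log2 fold change 0.26, adjusted p = 0.00522), a call lost without HT-DNA replicate 2 (adjusted p = 0.0543, with 0.000198 to 0.0543 over all alternatives). It was not called in the 3 other comparisons.

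**Figure D4:**
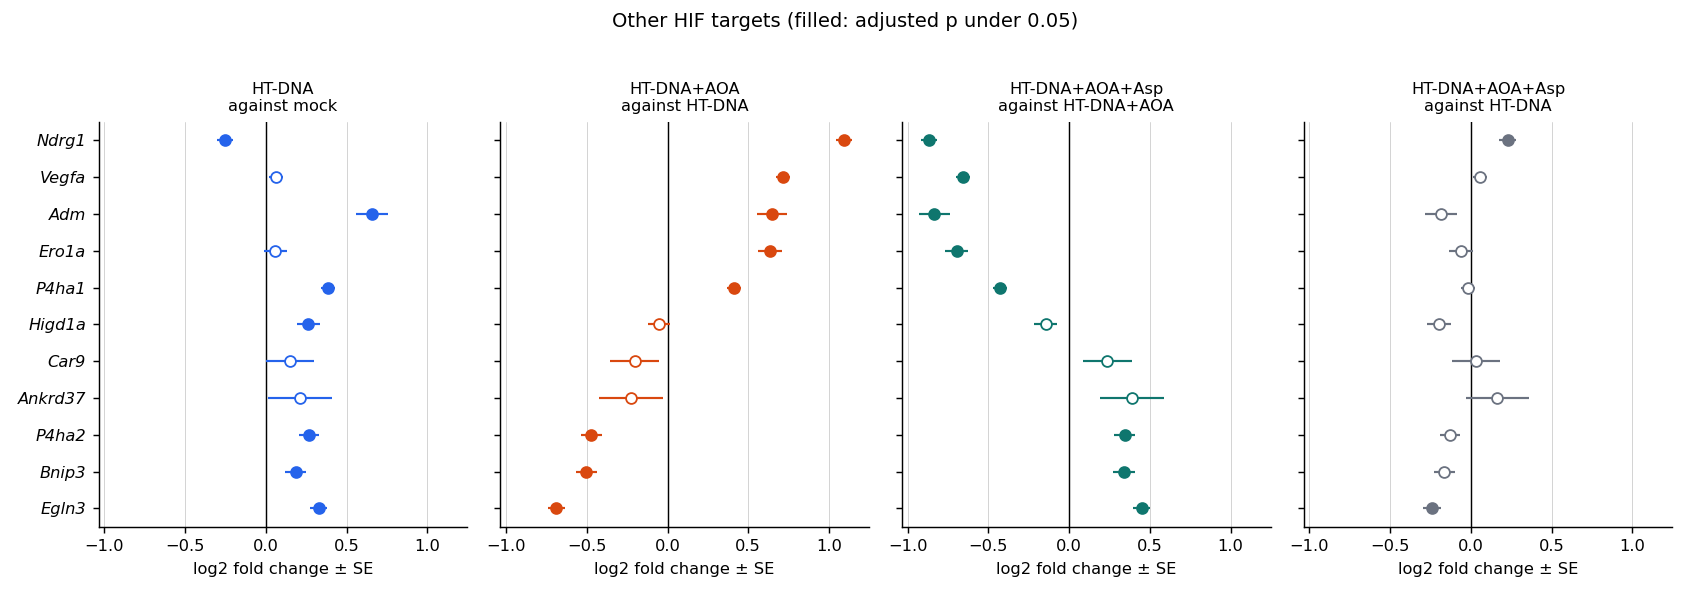
Log2 fold change (x axis, ± SE) of the 11 other HIF targets in the 4 comparisons; filled points passed an adjusted p under 0.05. With AOA, 5 genes at the top are filled to the right of 0 and 3 at the bottom to the left. With HT-DNA+AOA+Asp against HT-DNA, Ndrg1 and Egln3 are filled, 18.2% of these genes, near the 18.5% of all genes tested.

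The HIF subunits and their oxygen-dependent regulators were also measured, 6 of 9 passing the filter. Epas1, the other main alpha subunit, held at most 9 counts in a library and was not tested. Hif1a, the alpha subunit detected, averaged 176 ± 4.53, 202 ± 5.18, 261 ± 3.49 and 199 ± 2.23 CPM in mock, HT-DNA, HT-DNA+AOA and HT-DNA+AOA+Asp. Its transcript rose with HT-DNA (log2 fold change 0.19, adjusted p = 0.000423) and with AOA (log2 fold change 0.37, SE 0.039, adjusted p = 5.49e-08) and fell with Asp (log2 fold change -0.39, adjusted p = 2.63e-08). Protein, where HIF is mainly controlled, was not measured. Arnt, the stable partner, fell with HT-DNA from 52.9 to 44.7 CPM (log2 fold change -0.24, adjusted p = 0.000938). In HT-DNA+AOA+Asp the Arnt transcript was higher than in HT-DNA (log2 fold change 0.22, adjusted p = 0.0068). Egln1, the main HIF prolyl hydroxylase, averaged 34.3 ± 1.48, 46.6 ± 0.497, 32.4 ± 3.26 and 39.5 ± 1.78 CPM, and rose with HT-DNA (log2 fold change 0.44, adjusted p = 1.09e-05), fell with AOA (log2 fold change -0.52, adjusted p = 7.63e-07) and rose with Asp (log2 fold change 0.28, adjusted p = 0.00102). Egln2, its relative, fell with AOA (log2 fold change -0.35, adjusted p = 1.12e-05), and Vhl, the subunit that recognises hydroxylated HIF, rose with HT-DNA (log2 fold change 0.25, adjusted p = 0.00207) and fell with AOA (log2 fold change -0.16, adjusted p = 0.0303). The Vhl call with AOA did not hold when replicate 2 of HT-DNA (adjusted p = 0.162) or replicate 2 (0.0668) or 3 (0.0828) of HT-DNA+AOA was left out, with 0.00453 to 0.162 over all alternatives. In all, 3 of the 6 rose and 2 fell with HT-DNA, 2 rose and 4 fell with AOA, 3 rose and 1 fell with Asp, and 1 rose and 1 fell in HT-DNA+AOA+Asp against HT-DNA. Over all genes tested, 41.0%, 52.0%, 54.7% and 18.5% were called in these comparisons in turn.

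A list of 26 known HIF targets beyond the members, of which 21 were tested, was counted in the same way. With HT-DNA 9 rose and 1 fell, where 21.2% of all genes tested were called higher and 19.8% lower, led by Angptl4, a lipase inhibitor, from 31.5 to 71.4 CPM (log2 fold change 1.18, adjusted p = 1.07e-10), and with the adenylate kinase gene Ak4 (log2 fold change 0.77, adjusted p = 9.62e-11) among them. With AOA 6 rose and 9 fell, where 25.5% of all genes were called higher and 26.5% lower. The list's 28.6% higher was thus near the background, and its 42.9% lower stood above it. Cited2, a transcriptional regulator that restrains HIF, rose from 13.8 to 25.1 CPM (log2 fold change 0.87, adjusted p = 8.47e-05), while Selenbp1 fell (log2 fold change -0.84, adjusted p = 3.94e-05). With Asp 6 rose and 8 fell, where 28.3% of all genes were called higher and 26.4% lower. Here too the list's 28.6% higher was at the background, with 38.1% lower. In HT-DNA+AOA+Asp against HT-DNA none rose and 7 fell, where 10.4% and 8.15% of all genes were called, led by Angptl4 at 39.0 against 71.4 CPM (log2 fold change -0.88, adjusted p = 1.42e-07).

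Other isozymes and pyruvate-handling genes, 19 of 23 tested, counted 4 higher and 6 lower with HT-DNA, 7 and 3 with AOA, 5 and 8 with Asp, and 1 and 3 in HT-DNA+AOA+Asp against HT-DNA. The shares called were 52.6%, 52.6%, 68.4% and 21.1% in turn, against 41.0%, 52.0%, 54.7% and 18.5% of all genes tested, so the count with AOA was at the background. Pdk2 averaged 19.1, 9.56, 4.45 and 11.5 CPM in the 4 groups in order, and fell with HT-DNA (log2 fold change -0.998, SE 0.10, adjusted p = 8.41e-08) and with AOA (log2 fold change -1.10, SE 0.12, adjusted p = 1.19e-07) and rose with Asp (log2 fold change 1.37, SE 0.12, adjusted p = 3.27e-09). Slc16a1, the monocarboxylate transporter MCT1, rose with HT-DNA from 145 to 231 CPM (log2 fold change 0.67, adjusted p = 4.74e-11). Adpgk, an ADP-dependent glucokinase, rose with AOA from 69.6 to 101 (log2 fold change 0.53, adjusted p = 6.98e-08) and fell with Asp (log2 fold change -0.78, adjusted p = 2.27e-10). Eno2, the enolase of neurons, was higher in HT-DNA+AOA+Asp than in HT-DNA (log2 fold change 0.31, adjusted p = 0.000346).

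Branches that leave glycolysis, 15 genes all tested, counted 8 higher and none lower with HT-DNA, 3 and 6 with AOA, 5 and 5 with Asp, and 0 and 5 in HT-DNA+AOA+Asp against HT-DNA. The shares called were 53.3%, 60%, 66.7% and 33.3%, against 41.0%, 52.0%, 54.7% and 18.5% of all genes tested in turn, so the count with AOA was near the background. In the oxidative pentose phosphate branch Pgd and G6pdx fell with AOA, while Pgls, between them in that branch, was not called (log2 fold change 0.18, adjusted p = 0.202). Pgd, the phosphogluconate dehydrogenase, averaged 323 ± 8.18, 360.2 ± 14.6, 131 ± 5.85 and 345 ± 2.23 CPM in the groups in order. It fell to 0.363 times the HT-DNA level with AOA (log2 fold change -1.46, SE 0.044, adjusted p = 2.71e-16) and rose 2.64-fold with Asp (log2 fold change 1.40, SE 0.044, adjusted p = 1.19e-15). G6pdx, the entry enzyme of that branch, fell from 146 to 88.3 CPM with AOA (log2 fold change -0.72, adjusted p = 1.58e-11) and rose to 145 with Asp (log2 fold change 0.71, adjusted p = 1.78e-11). Gfpt2, of the hexosamine branch, rose with AOA from 2.75 ± 0.191 to 5.88 ± 1.22 CPM (log2 fold change 1.09, SE 0.20, adjusted p = 8.81e-05) and fell to 1.61 ± 0.469 with Asp (log2 fold change -1.86, adjusted p = 2.65e-07).

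Glucose-sensing and MYC-related transcription genes, 6 of 7 tested, counted 4 higher and 1 lower with HT-DNA, 3 and 2 with AOA, 1 and 2 with Asp, and 1 and 2 in HT-DNA+AOA+Asp against HT-DNA. Among all genes tested, the shares called were 41.0%, 52.0%, 54.7% and 18.5% in turn, and with Asp the list's 50.0% was near that background. Myc, a transcription factor known to act on many glycolytic genes, averaged 214 ± 3.87, 247 ± 13.8, 687 ± 94.9 and 254 ± 7.76 CPM. It rose 2.78-fold with AOA (log2 fold change 1.48, SE 0.078, adjusted p = 1.81e-09) and fell with Asp (log2 fold change -1.44, SE 0.078, adjusted p = 2.09e-09), while its partner Max fell with AOA (log2 fold change -0.47, adjusted p = 3.82e-08). Txnip, an arrestin-family gene that follows glucose supply and limits its uptake, fell with HT-DNA from 71.7 ± 4.31 to 45.7 ± 3.497 CPM (log2 fold change -0.65, SE 0.11, adjusted p = 0.000649). With AOA it averaged 36.7 ± 7.28 and missed the threshold (log2 fold change -0.31, adjusted p = 0.0501). Its relative Arrdc4 rose with AOA (log2 fold change 0.56, adjusted p = 1.04e-07) and fell with Asp (log2 fold change -0.75, adjusted p = 1.28e-09).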

How the data were processed

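Per the labels' protocols, RNA of 12 libraries (4 groups of 3) was extracted with TRIzol. Per the file headers and values, the authors deposited 1 table of estimated counts and a length in bases for each gene; from 14.4% to 16.6% of entries per library were not whole. No source used here gives its aligner, counting program, strand setting or genome build.

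Counts were rounded and tested with edgeR 4.0.16 in R 4.3.3 (TMM scaling, filterByExpr with a minimum count of 10 and total of 15, glmQLFit and glmQLFTest on all 12 libraries, 8 residual degrees of freedom), with Benjamini-Hochberg adjustment over 14694 genes. CPM uses TMM-scaled totals. Alternatives were RLE scaling, library size alone, no filter, 1 CPM in 3 libraries, DESeq2 1.42.0, 2 groups alone, a replicate block, each library left out, and, chosen after seeing the data, Eno1 with Eno1b and Pgam1 with Pgam1-ps2 summed. Scripts were tested on simulated data. Replicate pairs differed by more than sampling noise (chi-square per degree of freedom from 2.15 to 7.96). A count of 0 allows up to 3 counts, from 0.114 to 0.150 CPM by library, for counting error only.

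All members are named. From each other list the text names some of up to 3 genes per comparison with the largest change among those called, at 5 CPM or more in the higher group and without overlap, plus Hif1a, Epas1, Vhl, Egln1, Txnip and Myc. Named outside this rule are the relatives in the paragraph on shares, and Pgls, for its place between G6pdx and Pgd. Cxcl10, the cell type markers, Eno1b and Pgam1-ps2 are also outside it. The members and lists were chosen with earlier results of these data known.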

Additional observations from a re-analysis of the deposited data

How the results depend on the processing

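No member's called direction reversed under any alternative: of the member results over 128 member comparisons, 1689 stayed on the same side of the threshold, 65 lost and 32 gained a call, and Slc2a3 got no adjusted p from DESeq2 in 1. Counts of calls moved as follows, and the cause was not tested. For HT-DNA against mock, glycolytic enzymes called lower were 1 in place of 2 with no filter, with DESeq2 and with only the 2 groups fitted, and from 1 to 2 with single libraries left out. For Asp, enzymes called lower were 1 in place of 3 under library size alone and from 1 to 4 with single libraries left out.

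For HT-DNA+AOA+Asp against HT-DNA, members called lower were 5, and 8 with no filter, 8 with DESeq2 and 11 with only the 2 groups fitted, and from 2 to 7 with single libraries left out. Enzymes called lower were 3, and 5 with DESeq2, 7 with only the 2 groups and from 0 to 4 with libraries left out, and those called higher were 0, and 1 with no filter, with the 1 CPM filter and with only the 2 groups, and from 0 to 1. Other HIF targets called lower were 1, and 2 with RLE, 4 with no filter, 2 with DESeq2, 3 with only the 2 groups and from 1 to 2 with libraries left out. Calls over all genes ran from 952 to 1603 higher and from 726 to 1286 lower, against 1522 and 1197. Calls lower were 772 without HT-DNA+AOA+Asp replicate 2. Both counts were 966 and 746 without HT-DNA replicate 1, 952 and 737 without HT-DNA replicate 2, and 1002 and 726 without HT-DNA+AOA+Asp replicate 3.

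Libraries share a replicate number only: same-numbered libraries deviated together with a correlation from -0.151 to 0.0456. With the replicate block, members called lower in HT-DNA+AOA+Asp against HT-DNA were 3 in place of 5, and enzymes 1 in place of 3. Depth limited Slc2a3 and Epas1 most. Scaling by library size alone moved the median log2 fold change of all genes by at most 0.062 in size.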

Other observations

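Pgam1-ps2, a processed copy of Pgam1, took from 0.306% to 6.06% of the joint counts of both by library. Its 3 HT-DNA+AOA libraries read 34.6, 2.88 and 46.4 CPM, so the second stood apart from the other two, while Pgam1 read 938, 944 and 876 CPM in the same libraries. Eno1b, at 1406 CPM in mock, 1698 in HT-DNA, 1845 in HT-DNA+AOA and 1673 in HT-DNA+AOA+Asp, drew more counts than Eno1 in every library.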
